A study of Mus musculus with 18 samples.

Results

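The genes described here, 10 of the 52636 in each deposited file, encode enzymes that methylate lysine 9 of histone H3 (H3K9), the cofactors TRIM28 and WIZ that work with them, and the heterochromatin protein 1 (HP1) family that binds this mark. They were taken by name: Setdb1 and Trim28, Suv39h1 and Suv39h2, Ehmt1, Ehmt2 and Wiz, and Cbx1, Cbx3 and Cbx5. All 10 names were found once. Their poly-A RNA was measured by RNA-seq in testis, brain and liver of adult male C57BL/6 mice aged 8 weeks, either knockout (KO) for Pcgf6 or wild type (WT). Each tissue has 3 KO and 3 WT libraries, which makes 18. KO libraries are numbered 4 to 6 and WT libraries 1 to 3 in each tissue. The labels state neither how the Pcgf6 allele was made nor whether the libraries of different tissues came from the same animals, so p-values measure the spread between these libraries.

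H3K9 di- and trimethylation mark silent chromatin. SETDB1 is brought to DNA by the corepressor TRIM28 (KAP1), which binds KRAB zinc finger proteins. SUV39H1 and SUV39H2 trimethylate H3K9 in pericentromeric repeats, and GLP (Ehmt1) and G9a (Ehmt2) work as a heterodimer, held together with the zinc finger protein WIZ, that mono- and dimethylates H3K9 in euchromatin. HP1β (Cbx1), HP1γ (Cbx3) and HP1α (Cbx5) read the methylated lysine through a chromodomain. PCGF6 belongs to PRC1.6, a Polycomb complex that silences germ cell genes and from which G9a, GLP and HP1γ were also purified.

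The promoters of both pairs of methyltransferase paralogs are printed here because the balance within each pair differed between tissues. The windows are the 250 bases before the RefSeq start on GRCm38.p6, in the direction of transcription. Capitals mark CACGTG, the E-box bound by MAX and MGA, and GCGGGAA or its reverse TTCCCGC, a form of the E2F site; both strands were searched, and the motifs do not overlap.
Suv39h2, chr2:3474987-3475236, minus strand: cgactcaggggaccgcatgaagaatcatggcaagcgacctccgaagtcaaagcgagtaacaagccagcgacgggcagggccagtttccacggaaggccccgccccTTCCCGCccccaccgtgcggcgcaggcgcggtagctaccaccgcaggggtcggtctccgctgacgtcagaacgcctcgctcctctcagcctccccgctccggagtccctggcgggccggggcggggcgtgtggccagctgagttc
Suv39h1, chrX:8074761-8075010, minus strand: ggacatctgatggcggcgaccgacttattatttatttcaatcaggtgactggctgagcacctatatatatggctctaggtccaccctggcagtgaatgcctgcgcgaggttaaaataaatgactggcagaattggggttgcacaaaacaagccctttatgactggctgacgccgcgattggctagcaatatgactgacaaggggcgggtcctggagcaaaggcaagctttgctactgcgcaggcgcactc
Ehmt2, chr17:34898224-34898473, plus strand: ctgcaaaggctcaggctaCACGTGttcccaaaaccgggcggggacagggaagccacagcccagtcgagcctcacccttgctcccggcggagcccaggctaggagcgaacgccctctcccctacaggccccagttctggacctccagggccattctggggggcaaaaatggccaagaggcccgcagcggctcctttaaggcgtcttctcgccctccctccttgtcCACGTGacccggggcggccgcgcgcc
Ehmt1, chr2:24919610-24919859, minus strand: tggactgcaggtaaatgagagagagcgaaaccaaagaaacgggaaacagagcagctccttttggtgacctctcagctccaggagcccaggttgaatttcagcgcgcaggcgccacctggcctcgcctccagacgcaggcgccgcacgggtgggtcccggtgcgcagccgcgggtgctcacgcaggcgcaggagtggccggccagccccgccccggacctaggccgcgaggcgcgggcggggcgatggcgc
The Suv39h2 window held an E2F match whose first base lies 145 bases before the start, and the Suv39h1 window held neither motif. The Ehmt2 window held E-boxes 232 and 26 bases before the start, and the Ehmt1 window held none. Among the other members, Cbx5 had an E-box 136 bases before its start and Trim28 an E2F match 178 bases before its start, in a window that lies 25038 bases downstream of the gene start in the files. Of 32851 RefSeq windows of the same length, 6.02% held the E-box and 3.82% the E2F match. No binding was measured in these samples.

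Depth was 18990130 to 23529098 reads per library, recovered from the deposited values. Levels are in FPKM (fragments per kilobase of gene, scaled to depth). Comparisons between genes, also as ratios and shares, rest on 1 fixed length per gene. Isoform use in each tissue was not tested. The library sizes behind the FPKM values equalise the median of 14876 genes read in every library. A difference between tissues is therefore relative to those genes. Pcgf6 itself was at 9.58 to 10.6 FPKM in KO testis against 19.9 to 22.3 in WT testis, at 3.30 to 4.42 FPKM in KO brain against 4.58 to 5.29 in WT brain, and at 1.44 to 2.66 FPKM in KO liver against 4.08 to 5.66 in WT liver. All KO libraries were below all WT libraries in each tissue, none of these differences passed adjustment over all genes (limma, adjusted p = 0.0638, 1 and 0.485), and reads from the locus remained in every KO library. The defining markers of each labelled tissue were present: 4 elongating spermatid markers summed to 17328 to 29531 FPKM in testis and at most 11.3 elsewhere, 4 neuron markers summed to 385 to 426 FPKM in brain and at most 2.63 elsewhere, and 5 hepatocyte markers summed to 52017 to 60241 FPKM in liver and at most 481 elsewhere. In bulk tissue, fewer cells of a type and less RNA per cell cannot be told apart.

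**Figure D1:**
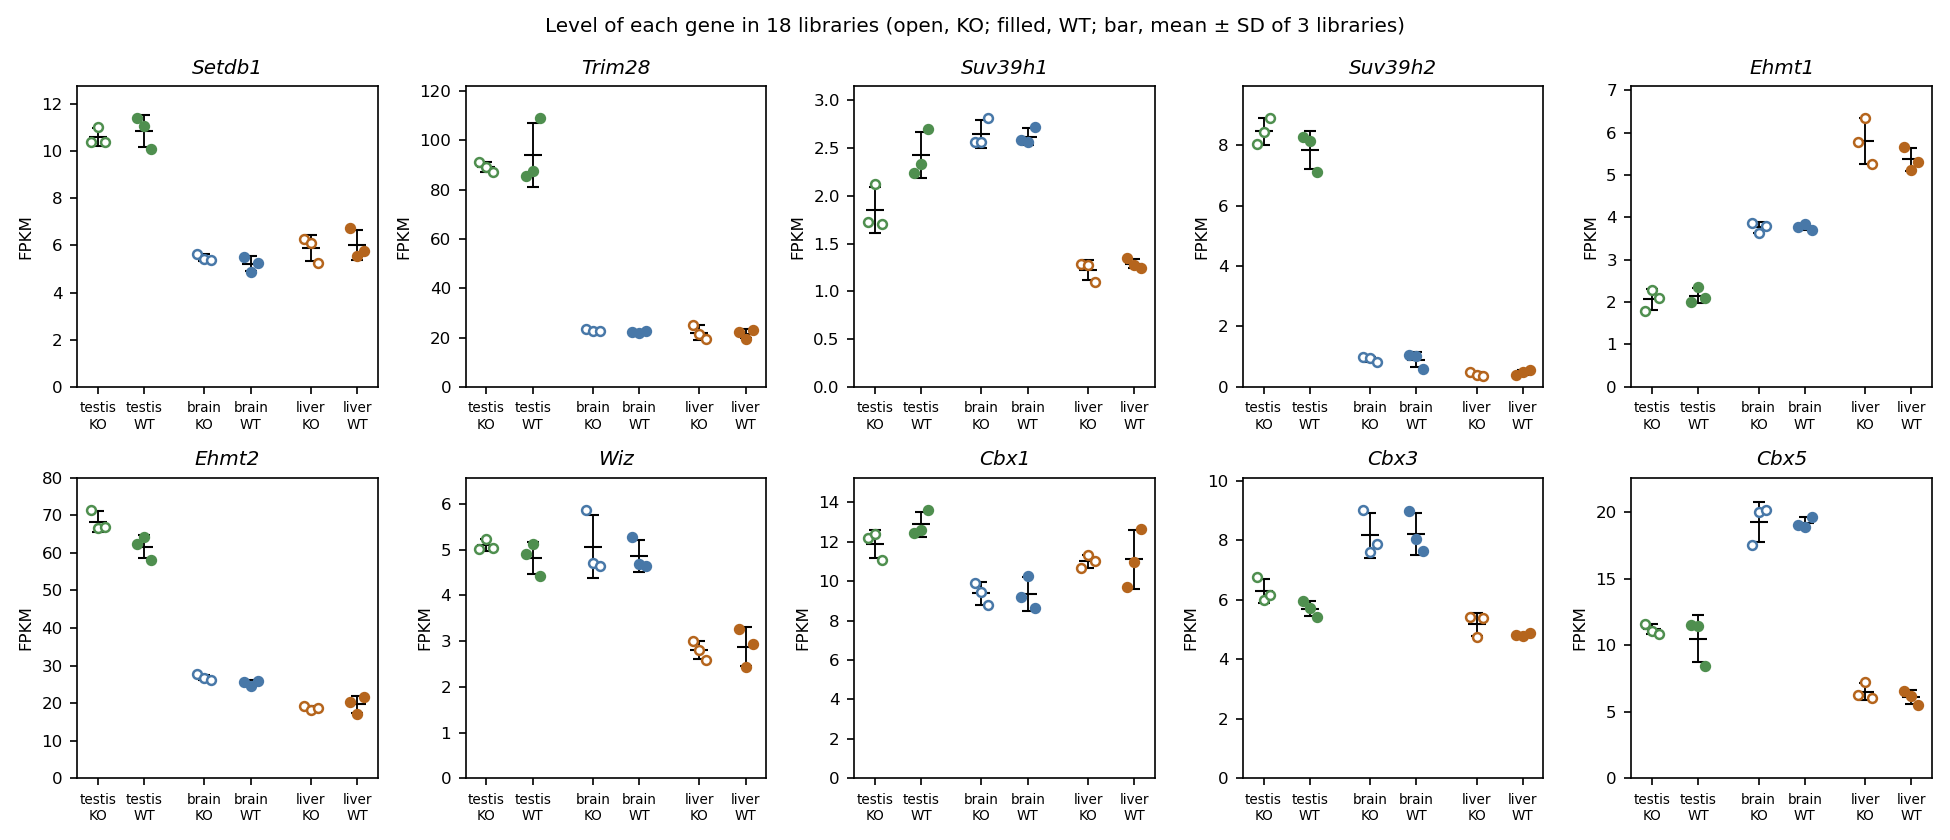
FPKM (y axis, from 0) of each of the 10 genes in testis, brain and liver (x axis), with KO libraries as open and WT libraries as filled points and the mean ± SD of 3 libraries as bars. Suv39h2, Trim28, Ehmt2 and Setdb1 stood highest in testis, Cbx5 and Cbx3 highest in brain and Ehmt1 highest in liver in the deposited scaling.

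Setdb1 (chr3:95323525-95357202, minus strand, mm10 as in the files), the enzyme of the TRIM28 pathway, was higher in testis than in the other tissues. It had 10.4, 11.04 and 10.4 FPKM in KO testis and 11.4, 11.1 and 10.1 FPKM in WT testis. It had 5.65, 5.42 and 5.38 FPKM in KO brain and 5.52, 4.88 and 5.26 FPKM in WT brain, and 6.29, 6.10 and 5.26 FPKM in KO liver and 6.72, 5.53 and 5.76 FPKM in WT liver. Every testis library was above every brain and liver library, and brain overlapped with liver when both genotypes are pooled. In WT, the log2 difference was 1.04 ± 0.09 (limma SE) for testis over brain (adjusted p = 2.01e-05) and 0.85 ± 0.11 for testis over liver (adjusted p = 0.000274).

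Trim28 (chr7:12999114-13031035, plus strand), the corepressor that carries SETDB1, had the highest level of the 10 genes in testis. It had 91.2, 89.4 and 87.1 FPKM in KO testis and 85.7, 87.6 and 109 FPKM in WT testis. In KO and WT brain together it had 21.9 to 23.6 FPKM, and in KO and WT liver 19.4 to 25.1 FPKM, so brain and liver overlapped and every testis library was above both. The log2 difference in WT was 2.06 ± 0.11 for testis over brain (adjusted p = 1.15e-06) and 2.12 ± 0.13 for testis over liver (adjusted p = 3.93e-06). For brain over liver it was 0.05 ± 0.08 in WT (adjusted p = 0.557) and 0.07 ± 0.10 in KO (adjusted p = 0.519).

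The paralogs that act on pericentromeric repeats had different tissue patterns. Suv39h2 (chr2:3455815-3475031, minus strand) had 8.02, 8.44 and 8.89 FPKM in KO testis and 8.28, 8.12 and 7.10 FPKM in WT testis. It had 0.980, 0.942 and 0.825 FPKM in KO brain and 1.05, 1.04 and 0.606 FPKM in WT brain, and 0.487, 0.395 and 0.368 FPKM in KO liver and 0.393, 0.489 and 0.563 FPKM in WT liver. Every testis library was above every other library. In WT, testis exceeded brain by 3.03 ± 0.21 (adjusted p = 5.39e-06) and liver by 3.78 ± 0.15 (adjusted p = 5.61e-07) on the log2 scale. The brain level was also above the liver level, by 0.75 ± 0.23 in WT (adjusted p = 0.0205), a call lost without liver WT 1, brain WT 1 or brain WT 2 (adjusted p 0.0588 to 0.0761), and by 0.98 ± 0.15 in KO (adjusted p = 0.000616). Liver libraries held only 21 to 37 Suv39h2 reads each.

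Suv39h1 (chrX:8061171-8074760, minus strand) was not highest in testis. It had 1.73, 2.13 and 1.70 FPKM in KO testis and 2.24, 2.33 and 2.70 FPKM in WT testis, and 2.57, 2.56 and 2.81 FPKM in KO brain and 2.58, 2.56 and 2.72 FPKM in WT brain. It had 1.28, 1.27 and 1.10 FPKM in KO liver and 1.34, 1.28 and 1.25 FPKM in WT liver. Liver was lowest, without overlap with the other tissues, and WT testis overlapped with WT brain while KO testis lay below KO brain. The log2 difference for testis over brain was -0.50 ± 0.12 in KO (adjusted p = 0.00445) and -0.11 ± 0.11 in WT (adjusted p = 0.375), and for brain over liver 1.06 ± 0.11 in KO and 0.97 ± 0.10 in WT (adjusted p = 0.000102 and 7.85e-05).

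Within a library the ratio of the paralogs does not depend on how libraries are scaled. Suv39h2 over Suv39h1 was 4.62 ± 0.63 in KO testis and 3.27 ± 0.56 in WT testis (SD, n = 3 each). The same ratio was 0.348 ± 0.047 in KO brain and 0.344 ± 0.105 in WT brain, and 0.341 ± 0.035 in KO liver and 0.375 ± 0.080 in WT liver. Suv39h2 was thus the more abundant transcript per kilobase in all 6 testis libraries, and Suv39h1 in all 12 brain and liver libraries.

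Ehmt2 and Ehmt1, whose products form one enzyme complex, also differed in balance between tissues. Ehmt2 (chr17:34898469-34914052, plus strand) had 71.4, 66.6 and 66.8 FPKM in KO testis and 62.4, 64.2 and 58.2 FPKM in WT testis. It had 27.7, 26.7 and 26.2 FPKM in KO brain and 25.7, 24.6 and 25.9 FPKM in WT brain, and 19.2, 18.3 and 18.6 FPKM in KO liver and 20.3, 17.1 and 21.6 FPKM in WT liver. The order testis, brain, liver held with no overlap between tissues. In WT, testis was above brain by 1.28 ± 0.07 (adjusted p = 1.98e-06) and brain above liver by 0.37 ± 0.10 (adjusted p = 0.00925) on the log2 scale.

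Ehmt1 (chr2:24789928-24919614, minus strand) ran in the other direction in the deposited scaling. It had 1.79, 2.29 and 2.11 FPKM in KO testis and 2.01, 2.35 and 2.09 FPKM in WT testis. It had 3.87, 3.62 and 3.81 FPKM in KO brain and 3.77, 3.85 and 3.71 FPKM in WT brain, and 5.79, 6.34 and 5.26 FPKM in KO liver and 5.66, 5.13 and 5.32 FPKM in WT liver. The 3 tissues did not overlap. In WT, testis was below brain by a log2 difference of -0.79 ± 0.10 (adjusted p = 0.000204), and the difference for brain over liver was -0.50 ± 0.08 (adjusted p = 0.000844), which turned to 1.00 when values were rescaled to TPM and to 0.33 when scaled by the library total. Ehmt2 over Ehmt1 within a library was 33.6 ± 5.7 in KO testis and 28.7 ± 2.0 in WT testis, 7.13 ± 0.24 in KO brain and 6.72 ± 0.30 in WT brain, and 3.24 ± 0.33 in KO liver and 3.66 ± 0.37 in WT liver (SD, n = 3 each). This ratio was above 1 in every library and did not overlap between tissues.

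Wiz (chr17:32354055-32389401, minus strand), the zinc finger partner of both enzymes, had 5.02, 5.25 and 5.03 FPKM in KO testis and 4.91, 5.12 and 4.42 FPKM in WT testis. It had 5.88, 4.70 and 4.64 FPKM in KO brain and 5.28, 4.70 and 4.63 FPKM in WT brain, against 2.59 to 2.99 FPKM in KO liver and 2.44 to 3.27 FPKM in WT liver. Testis and brain overlapped and liver lay below both. The log2 difference for testis over brain was 0.02 ± 0.10 in KO (adjusted p = 0.883), turning to -0.61 under TPM scaling (adjusted p = 0.00156) and -0.16 under scaling by the library total, and -0.02 ± 0.10 in WT (adjusted p = 0.891).

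**Figure D2:**
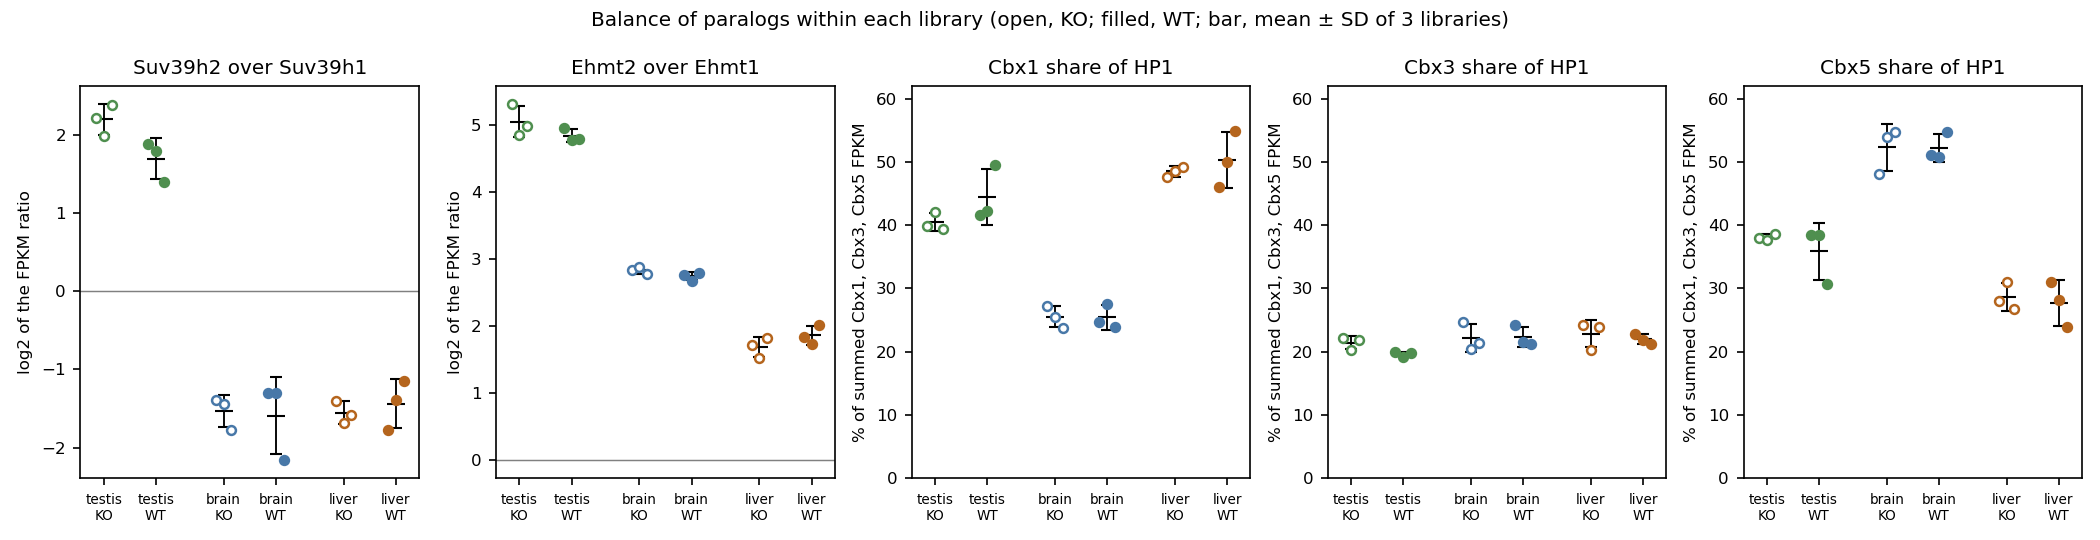
Log2 ratio of Suv39h2 over Suv39h1 and of Ehmt2 over Ehmt1 (left 2 panels, line at equal levels) and the share of each HP1 gene in the summed Cbx1, Cbx3 and Cbx5 FPKM in percent (right 3 panels), per library, with KO open, WT filled and bars for the mean ± SD of 3 libraries. The Suv39h2 to Suv39h1 ratio lies above the line in testis only, and Cbx5 takes the largest share in brain.

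The 3 HP1 genes divided differently in each tissue. Cbx5 (HP1α, chr15:103191544-103239816, minus strand) had 11.6, 11.1 and 10.9 FPKM in KO testis and 11.5, 11.5 and 8.44 FPKM in WT testis. It had 17.5, 20.02 and 20.2 FPKM in KO brain and 19.0, 18.9 and 19.7 FPKM in WT brain, and 6.28, 7.24 and 5.99 FPKM in KO liver and 6.54, 6.20 and 5.50 FPKM in WT liver. The tissues did not overlap. In WT, testis was below brain by a log2 difference of -0.88 ± 0.13 (adjusted p = 0.000458), and brain was above liver by 1.64 ± 0.08 (adjusted p = 1.84e-06).

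Cbx3 (HP1γ, chr6:51470360-51483704, plus strand) was likewise highest in brain, by a smaller margin. It had 6.77, 5.99 and 6.15 FPKM in KO testis and 5.96, 5.73 and 5.43 FPKM in WT testis. It had 9.03, 7.61 and 7.88 FPKM in KO brain and 8.98, 8.04 and 7.63 FPKM in WT brain, and 5.44, 4.74 and 5.37 FPKM in KO liver and 4.81, 4.79 and 4.89 FPKM in WT liver. Brain stood apart from both other tissues, and testis overlapped with liver once both genotypes are pooled. The WT log2 difference was -0.52 ± 0.09 for testis over brain (adjusted p = 0.0013), 0.75 ± 0.08 for brain over liver (adjusted p = 0.000137) and 0.23 ± 0.09 for testis over liver (adjusted p = 0.0435). The last did not pass with the replicate number as a block (adjusted p = 0.0994) or when any library other than testis WT 3 was left out (adjusted p 0.0858 to 0.0999). Its KO counterpart, 0.28 ± 0.10 (adjusted p = 0.0293), was lost without liver KO 5, testis KO 4 or testis KO 6 (adjusted p 0.0556 to 0.0862).

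Cbx1 (HP1β, chr11:96789127-96808640, plus strand) differed less between tissues than the other HP1 genes in the deposited scaling. It had 12.2, 12.4 and 11.1 FPKM in KO testis and 12.4, 12.6 and 13.6 FPKM in WT testis, 8.78 to 9.91 FPKM in KO brain and 8.61 to 10.3 FPKM in WT brain, and 10.7 to 11.3 FPKM in KO liver and 9.70 to 12.7 FPKM in WT liver. Testis lay above brain without overlap, and liver overlapped with both when the genotypes are pooled. The WT log2 difference for testis over brain was 0.46 ± 0.09 (adjusted p = 0.00223), turning to -0.11 under TPM scaling. For testis over liver it was 0.11 ± 0.08 in KO (adjusted p = 0.213), and 1.05 under TPM and 0.79 under library totals (adjusted p = 3.75e-05 and 5.06e-05). In WT it was 0.22 ± 0.12 (adjusted p = 0.12), and it passed under TPM at 1.158 (adjusted p = 0.000276), under library totals at 0.95 (adjusted p = 0.000588) and without liver WT 3 at 0.32 (adjusted p = 0.038). For brain over liver it was -0.24 ± 0.12 in WT (adjusted p = 0.0978), and in KO it was -0.23 ± 0.07 (adjusted p = 0.0228), a call lost without liver KO 5, brain KO 5 or brain KO 6 (adjusted p 0.0542 to 0.0660) and turned to 1.33 under TPM and 0.63 under library totals.

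As shares of the summed HP1 level, Cbx5 made up 38.1 ± 0.5% in KO testis and 35.9 ± 4.5% in WT testis, 52.3 ± 3.6% in KO brain and 52.2 ± 2.2% in WT brain, and 28.6 ± 2.2% in KO liver and 27.7 ± 3.6% in WT liver (SD, n = 3 each). Cbx1 made up 40.4 ± 1.4% in KO testis and 44.5 ± 4.4% in WT testis, 25.5 ± 1.7% in KO brain and 25.4 ± 1.9% in WT brain, and 48.5 ± 0.8% in KO liver and 50.3 ± 4.4% in WT liver. Cbx5 was the largest share in every brain library, and Cbx1 in every testis and liver library. Cbx3 stayed between 19.2% and 24.7% in all 18 libraries.

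Across the 10 genes, 9 differed between testis and liver in WT (8 higher and 1 lower in testis), Cbx3 only without the replicate block. Of 21737 genes tested in this comparison, 87.7% were called, 57.8% higher and 29.9% lower. In KO 9 differed (8 higher and 1 lower), where 89.6% were called, 59% higher and 30.6% lower. Between testis and brain 8 differed in WT (5 higher and 3 lower in testis), where 86.1% of genes were called, 50.1% higher and 35.9% lower. In KO 9 differed (5 higher and 4 lower), where 89% were called, 51.8% higher and 37.2% lower. Between brain and liver 7 differed in WT (6 higher and 1 lower in brain), where 83.9% of genes were called, 48.6% higher and 35.3% lower. In KO 8 differed (6 higher and 2 lower), where 84.2% were called, 48.7% higher and 35.5% lower. Most genes differ between these tissues, and the members' counts are read against that background. The members' median WT log2 difference was 0.80 for testis over liver, 0.22 for testis over brain and 0.56 for brain over liver, beside 1.06, 0.42 and 0.32 over all genes tested.

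The scaling of the libraries bears on these directions. TPM moved the median of the 14876 common genes to 0.97 for testis over liver, -0.61 for testis over brain and 1.51 for brain over liver in WT, and scaling by library total moved it to 0.77, -0.13 and 0.83. The share of all calls that were higher was 78.6% under TPM, 76.2% under library totals and 66.0% as deposited for testis over liver, and 84.0%, 75.5% and 57.9% for brain over liver. For testis over brain it was 48.5% under TPM, 56.5% under library totals and 58.3% as deposited. Under TPM and under library totals Setdb1, Ehmt1 and Cbx1 changed to higher in brain than in liver, and all 10 genes were then called higher in WT brain than in WT liver. Trim28, which overlapped between brain and liver as deposited, was then higher in WT brain by 1.56 under TPM and 0.89 under library totals (adjusted p = 1.79e-06 and 3.19e-05). For testis over brain in WT, TPM also gave calls for Suv39h1 (-0.68, adjusted p = 0.00202) and Wiz (-0.59, adjusted p = 0.0006). The direction of Suv39h2, Trim28, Ehmt2 and Setdb1 in testis over both tissues, of Ehmt1 in testis below both, and of Cbx5 and Cbx3 in brain above both was the same under all 3 scalings.

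**Figure D3:**
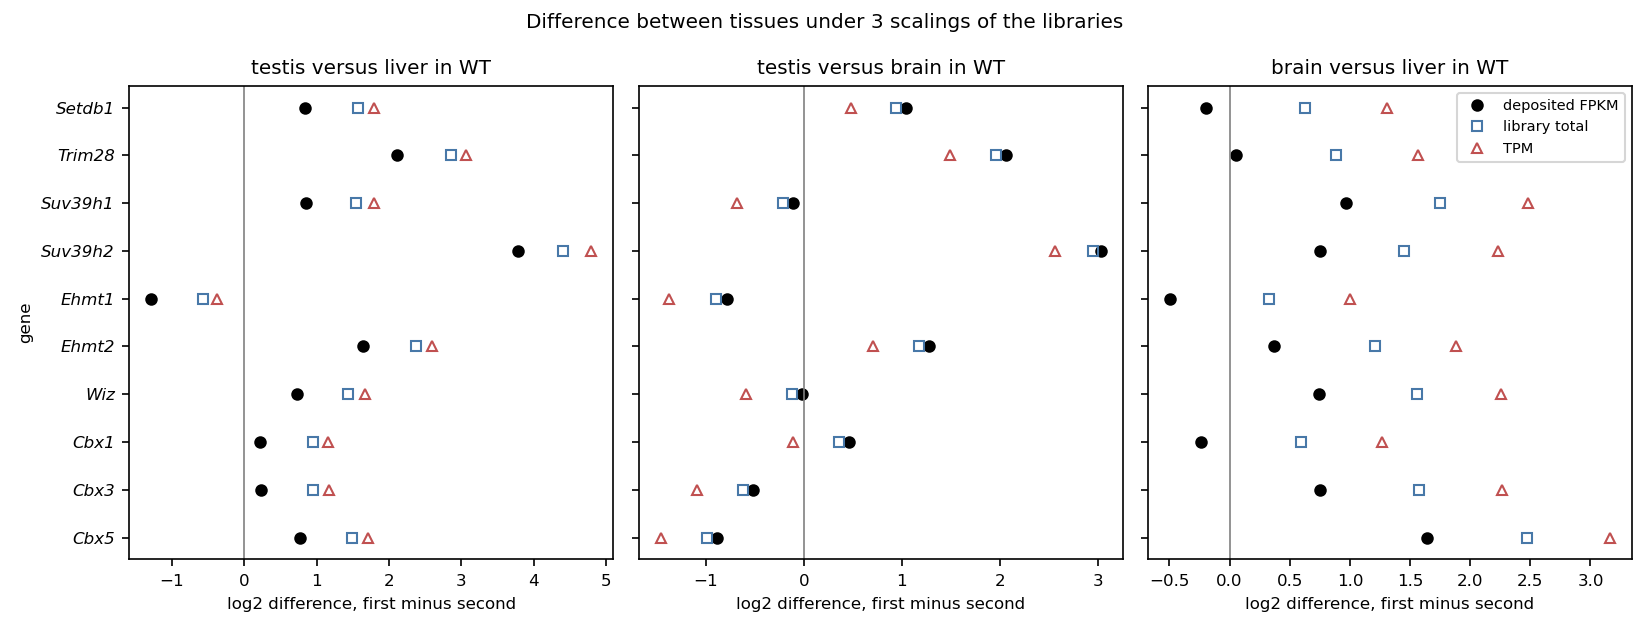
Log2 difference between tissues in WT (x axis, first-named minus second-named tissue) for each gene (y axis), from the deposited FPKM (black dots), from values scaled by the library total (squares) and from TPM (triangles). Suv39h2, Trim28 and Ehmt2 lie above 0 in both testis panels under all 3 scalings, while Setdb1, Ehmt1 and Cbx1 cross 0 in the brain to liver panel.

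Between KO and WT none of the 10 genes had a called difference in any tissue. In testis, 0 of 10 were called, beside 0.00448% of 22341 genes tested (1 gene). In brain it was 0 of 10, beside 0.0837% of 17922 genes (15 genes), and in liver 0 of 10, beside 0.0212% of 14124 genes (3 genes). An unadjusted p under 0.05 was reached by 1 member in testis (Suv39h1; 4.13% of genes tested), 0 in brain (4.46%) and 0 in liver (4.38%). Voom weights on the recovered reads and a fit of all 18 libraries also called 0 members in each tissue. The 95% intervals of the KO to WT fold lay, over the 10 genes, within 0.604 and 1.35 for testis, within 0.746 and 1.46 for brain and within 0.630 and 1.30 for liver. The members' median log2 difference was 0.03 in testis, 0.03 in brain and -0.02 in liver, beside 0.03, 0.01 and 0.00 over all genes tested.

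**Figure D4:**
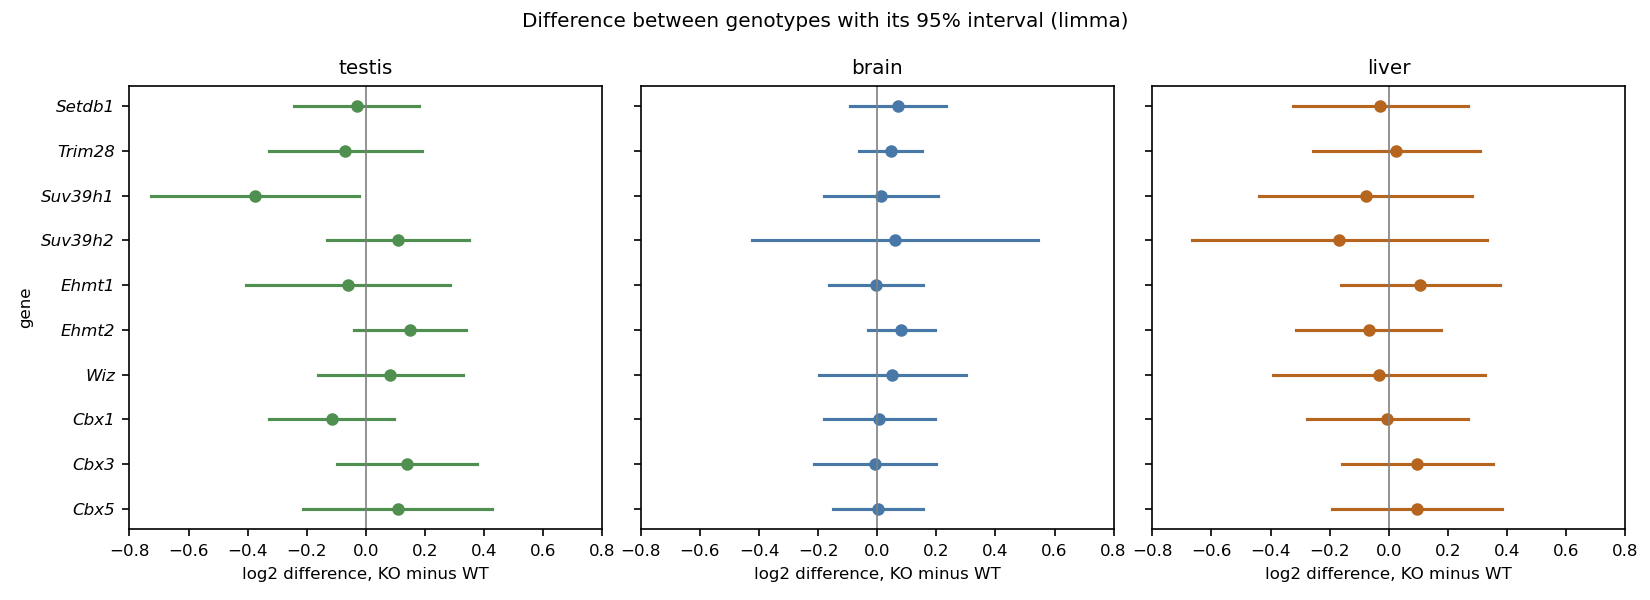
Log2 difference, KO minus WT (x axis), of each gene (y axis) in testis, brain and liver, with points for the limma estimate and lines for its 95% interval. All intervals reach 0 except that of Suv39h1 in testis, which runs from -0.73 to -0.02 before adjustment.

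Suv39h1 had the largest difference of the 10 genes between KO and WT testis. It averaged 1.85 ± 0.24 FPKM in KO testis and 2.43 ± 0.24 FPKM in WT testis (SD, n = 3 each), a log2 difference of -0.38 ± 0.15 (limma, adjusted p = 0.871), and all KO libraries were below all WT libraries. Over the alternative settings its adjusted p ranged from 0.287 to 0.987. The Suv39h2 to Suv39h1 ratio was 4.65, 3.97 and 5.23 in KO testis and 3.69, 3.48 and 2.63 in WT testis, without overlap. An exact two-sided permutation test of its log2 value gave p = 0.1, the smallest that 3 against 3 libraries allow. The ratio's KO minus WT difference was 0.50 on the log2 scale in testis, 0.06 in brain (exact p = 1) and -0.12 in liver (exact p = 0.6). Without testis WT 3 the testis value was 0.36.

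Beside this result, the 4 spermatogonium markers, all detected, summed to 10.9 to 13.8 FPKM in KO testis (median 11.01) and 13.6 to 16.7 FPKM in WT testis (median 14.3). The same sum was 19.3 to 20.9 FPKM in brain and 50.2 to 84.4 FPKM in liver, so it is not particular to spermatogonia. The 4 Sertoli cell markers summed to 117 to 142 FPKM in KO testis and 128 to 184 FPKM in WT testis. The part of these cell types in the Suv39h1 values was not tested. Testis WT 3, which had the highest Suv39h1 level, also had the highest Trim28, the lowest Cbx5 and the highest mitochondrial share of reads among testis libraries (1.04%, against 0.772% to 0.894% in the other 5). Without it the Suv39h1 difference was -0.30 (adjusted p = 0.959).

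In testis the KO and WT libraries did not overlap for 4 of the 10 genes, beside 11.9% of all genes tested. Ehmt2 was above WT in every KO library, at 68.3 ± 2.7 FPKM in KO testis and 61.6 ± 3.1 FPKM in WT testis (log2 difference 0.15 ± 0.08, adjusted p = 0.871). Cbx3 was also above, at 6.30 ± 0.41 FPKM in KO testis and 5.70 ± 0.26 FPKM in WT testis (log2 difference 0.14 ± 0.10, adjusted p = 0.871). Cbx1 was below, at 11.9 ± 0.7 FPKM in KO testis and 12.9 ± 0.6 FPKM in WT testis (log2 difference -0.12 ± 0.09, adjusted p = 0.871), and Suv39h1 was the other. The Cbx3 share of HP1 was 21.4 ± 1.0% in KO testis and 19.6 ± 0.4% in WT testis (exact permutation p = 0.1, the smallest possible). None of these differences passed adjustment. Leaving out 1 library at a time moved the Cbx3 share difference between 1.47 and 2.38 percentage points.

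In brain the KO and WT libraries did not overlap, in either direction, for 2 of 10 genes, beside 9.08% of genes tested. Both genes were above WT in every KO library. Ehmt2 was at 26.9 ± 0.7 FPKM in KO brain and 25.4 ± 0.7 FPKM in WT brain. Trim28 was at 23.0 ± 0.5 FPKM in KO brain and 22.3 ± 0.4 FPKM in WT brain (limma adjusted p = 1 for each). In liver 0 of 10 genes were without overlap, beside 9.52%. The Ehmt2 to Ehmt1 ratio gave an exact p = 0.2 in each tissue. Over the 15 ratio and share comparisons between genotypes, the smallest p adjusted by Benjamini-Hochberg was 0.5.

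The KO effect itself was compared between tissues. Of the 10 genes, 0 differed in KO effect between testis and liver (0.0457% of 13133 genes called), 0 between testis and brain (0.0626% of 15962) and 0 between brain and liver (0% of 12922, with 625 genes at an unadjusted p under 0.05). Among the members, Suv39h1 for testis minus brain had an unadjusted p under 0.05 (difference -0.39 ± 0.16, limma adjusted p = 0.928), beside 4.56% of genes tested, and 0 did for testis minus liver (4.61%) and for brain minus liver (4.84%).

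Genes that work with the members also had no called difference between genotypes. They form 6 lists: other methyltransferases, H3K9 demethylases, SETDB1 cofactors with the HUSH complex, G9a and GLP cofactors, HP1 partners and remaining PRC1.6 subunits. Of these 49 genes, 0 of 49 tested were called in testis and 0 of 47 tested in brain and in liver. Of all genes tested, 0.00448% were called in testis, 0.0837% in brain and 0.0212% in liver. An unadjusted limma p under 0.05 was reached by 2 list genes in testis, beside 4.13% of all genes tested. It was reached by 0 in brain (4.46%) and in liver (4.38%). The 2 genes are named here after their values were seen, for description only. The demethylase Kdm4a was at 6.94 ± 0.07 FPKM in KO testis and 5.63 ± 0.50 FPKM in WT testis (adjusted p = 0.871), and Cdyl2 at 7.79 ± 0.73 FPKM in KO testis and 6.04 ± 1.05 FPKM in WT testis (adjusted p = 0.871). In a list of 10 germ cell genes that PRC1.6 is known to silence, Mael and Slc25a31 were called, both higher, among 7 tested in brain (0.0837% of all genes called) and among 5 tested in liver (0.0212%), and 0 of 10 tested were called in testis (0.00448%). Mael averaged 15.0 ± 5.4 FPKM in KO liver while it is listed at 0 in all WT liver libraries. In WT brain Mael averaged 0.0912 FPKM, and Slc25a31 averaged 0.0284 FPKM in WT brain and 0.0725 in WT liver. Both genes thus entered the tested set through the KO libraries, and their calls only describe these values. Differences were positive for 5 of 7 tested in brain and 4 of 5 in liver, and Dazl in brain was lower (log2 difference -0.46). A gene near 0 in WT enters the tested set only if its KO level is high, which fixes a positive sign. Ddx4 in liver, at 0.667 FPKM in KO and 0.0148 FPKM in WT, is another such gene. The counts of signs therefore only describe these values.

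Between tissues, 40 of 49 list genes were called for testis over liver (87.7% of all genes), 39 of 49 for testis over brain (86.1%) and 34 of 48 tested for brain over liver (83.9%) in WT. For testis over brain, these lists are set beside 50.1% of all genes higher and 35.9% lower, with a median log2 difference of 0.42. Of 11 demethylases, 5 were higher and 3 lower in WT testis than in WT brain (median 0.02), with 5 and 6 under TPM and 5 and 4 under library totals. Kdm4d, an H3K9 demethylase, averaged 34.1 FPKM in testis and 0.344 in brain and is listed at 0 in all WT liver libraries. Kdm3a, needed for spermatid maturation in mice, averaged 21.1 ± 1.9 FPKM in testis and 4.49 ± 0.11 in brain (SD, n = 3 each; log2 difference 2.21, limma adjusted p = 3.34e-07), and Kdm1a 22.0 FPKM in testis and 9.57 in brain (log2 difference 1.19, adjusted p = 4.98e-06).

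Among 7 SETDB1 cofactors and HUSH genes, 4 were higher and 1 lower in testis than in brain (median 0.78), with 4 and 3 under TPM. Atf7ip2, a paralog of the SETDB1 partner Atf7ip, averaged 6.84 FPKM in testis and 0.00266 in brain. Mphosph8, which reads H3K9 methylation in HUSH, was higher in testis by 1.10 and Morc2a by 1.11 on the log2 scale (adjusted p = 5.89e-06 and 1.78e-05). Among 5 G9a and GLP cofactors, 3 were higher and 1 lower (median 0.87), with 2 and 2 under TPM. Cdyl, a chromodomain protein, averaged 56.1 FPKM in testis and 1.98 in brain (log2 difference 4.75, adjusted p = 1.75e-08). The log2 difference was 1.57 for Zfp518a, 0.87 for Cdyl2 and -1.31 for Zfp518b.

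Of 9 HP1 partners, 5 were higher and 3 lower in testis than in brain (median 1.32, beside 0.42 over all genes), with 5 and 4 under TPM. Chaf1a, the large subunit of the CAF-1 histone chaperone, averaged 57.2 FPKM in testis and 1.08 in brain (log2 difference 5.59, adjusted p = 3.32e-08). Uhrf1 averaged 21.2 FPKM in testis and 0.208 in brain (log2 difference 6.12, adjusted p = 3.38e-08), and Daxx, a chaperone of histone H3.3, 40.8 FPKM in testis and 6.44 in brain (log2 difference 2.65, adjusted p = 9.68e-08). Atrx went the other way, with a log2 difference of -2.87 as deposited, -2.99 under library totals and -3.52 under TPM. Of 12 remaining PRC1.6 subunits, 5 were higher and 4 lower in testis (median -0.02), with 3 and 7 under TPM and 5 and 5 under library totals. Log2 differences were 2.77 for Hdac1 and -2.67 for Yaf2 (adjusted p = 8.6e-08 and 1.35e-06), and Wdr5 averaged 13.7 FPKM in testis and 6.10 in brain (adjusted p = 3.98e-06). Of 5 other methyltransferases, 2 were higher and 3 lower under all 3 scalings (median -0.57 as deposited), with Setdb2 at 1.89, Prdm2 at 0.99 and Setmar at -1.39 (adjusted p = 4.76e-06, 0.00149 and 0.000194). Every gene named for this comparison kept its direction under TPM and library totals.

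Cbx3 and Cbx5 are each transcribed away from a gene for an abundant RNA-binding protein. The starts of Cbx3 and Hnrnpa2b1 lie 466 bases apart on chromosome 6, and those of Cbx5 and Hnrnpa1 lie 616 bases apart on chromosome 15 (mm10). Hnrnpa1 had 40.6 to 49.1 FPKM in testis, 76.1 to 83.1 in brain and 31.0 to 41.4 in liver, so brain was highest for both genes of this pair. Hnrnpa2b1 had 70.7 to 85.2 FPKM in testis, 53.7 to 61.0 in brain and 75.3 to 89.8 in liver, so brain was lowest where Cbx3 was highest in the deposited scaling.

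Hnrnpa2b1 over Cbx3 within a library was 11.9 ± 0.5 in KO testis and 13.8 ± 1.7 in WT testis, 6.90 ± 0.34 in KO brain and 6.96 ± 0.67 in WT brain, and 15.5 ± 1.2 in KO liver and 16.9 ± 0.8 in WT liver (SD, n = 3 each). Brain was below the other tissues without overlap. Hnrnpa1 over Cbx5 was 3.94 ± 0.25 in KO testis and 4.40 ± 0.78 in WT testis, 4.18 ± 0.49 in KO brain and 4.10 ± 0.17 in WT brain, and 5.87 ± 0.96 in KO liver and 5.95 ± 1.17 in WT liver, with overlap between tissues.

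Each member's profile over the 18 libraries was set beside those of 12613 genes by the root mean square (RMS) difference of their centred log2 values. The nearest genes were Wdr33 for Setdb1 (0.091), Acbd6 for Trim28 (0.095), Anapc4 for Suv39h1 (0.112), Sufu for Suv39h2 (0.189), Scaf11 for Ehmt1 (0.086), Smg5 for Ehmt2 (0.082) and Casc3 for Wiz (0.109). For the HP1 genes they were Bop1 for Cbx1 (0.104), Rfx7 for Cbx3 (0.1002) and Neo1 for Cbx5 (0.098). No member was among the 3 nearest of another. The closest members were Suv39h1 and Wiz (RMS difference 0.234) and Cbx3 and Wiz (0.256), while Ehmt2 and Trim28, both highest in testis, differed by 0.312. Suv39h2 was the farthest from any other member, at 0.785 from Trim28, followed by Ehmt1, at 0.673 from Cbx1. The median RMS difference from a member to all genes compared ran from 0.870 to 1.91.

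Reads near the members can come from other transcripts, since neither the kit nor the counting is stated to use strand. Gm13184, an antisense RNA of Suv39h2 on chromosome 2 (3468613 to 3474546, mm10) singled out after its values were seen, had 6.93 to 10.5 FPKM in KO testis and 6.02 to 9.70 FPKM in WT testis, and at most 0.119 in brain and 0.123 in liver. It shares 83 exon bases with Suv39h2, 1.88% of the Suv39h2 exons in GENCODE M21, and Dclre1c shares 357 bases (8.10%). The antisense Gm14820 shares 14.6% of the Suv39h1 exon bases and reached at most 0.195 FPKM. Gm26858 shares 22.1% of the Wiz exon bases and is listed at 0. Of its own exon bases 100% lie in Wiz exons, so the 0 does not tell whether it is transcribed. If reads shared by 2 genes were left uncounted, its 0 was fixed in advance and Wiz lost reads. How shared reads were counted was not tested. Cbx3 has 5 annotated processed pseudogenes that could take or give reads. Cbx3-ps6 had 0.734 to 1.51 FPKM in KO testis and 0.667 to 1.21 FPKM in WT testis, 1.45 to 2.86 FPKM in KO brain and 1.59 to 3.07 FPKM in WT brain, and 1.40 to 1.73 FPKM in KO liver and 1.37 to 2.67 FPKM in WT liver, and the other 4 stayed at or below 1.00 FPKM.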

How the data were processed

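Poly-A RNA from testis, brain and liver of KO and WT mice was sequenced, and groups were taken from the labels. The deposited values are FPKM per gene and library. Reads were aligned to mm10 and counted with HISAT2 2.0.5, featureCounts 1.5.0-p3 and DESeq2 1.16.1 among the tools named, per the submitters' processing notes, which give no role for each. The kit is not stated to mark strand.

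Multiplied by gene length, 100% of FPKM values were whole multiples (within 0.05 reads) of what 1 read is worth in that library, which gave reads per gene, 18990130 to 23529098 per library. The library size in the FPKM equals a median-of-ratios factor over 14876 genes read in every library, and the reads per library came to 0.806 to 1.52 of that size. No read was recorded for 11110 genes. A gene entered a comparison with 10 or more reads in 3 or more of its libraries, and was tested on log2(FPKM + 0.1) with limma 3.58.1 (R 4.3.3, mean-variance trend, only the groups compared) and Benjamini-Hochberg adjustment over all genes tested, calling adjusted p under 0.05. Fold changes are on that scale, which understates changes of low genes. The difference between KO effects was tested as an interaction. Ratios and shares were compared by exact two-sided permutation tests (scipy 1.17.1). The fits were tested on simulated data.

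The alternatives were other pseudocounts, no filter, TPM or library-total scaling, voom on the recovered reads, all 18 libraries in 1 fit, a replicate block and leaving out each library. Same-numbered libraries deviated together for testis and liver in WT (correlations 0.114 to 0.233) and for testis and brain in KO (0.137 to 0.223). There the numbers were taken to pair libraries, from the data and not from the labels. The main fits and their counts still left this pairing out, and it entered only in the replicate block alternative. Testis and liver in KO (0.0981 to 0.128) and brain and liver in KO (0.0968 to 0.140) came close to this.

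The 10 genes and all lists were chosen with earlier results of these data known. Named beside them were, per list and comparison, up to 3 called genes by adjusted p (those of testis over brain are printed), the genes with the most similar profile, the neighbours Hnrnpa1 and Hnrnpa2b1, Cbx3 pseudogenes and Pcgf6. To show both directions, Atrx, Dazl and further G9a and GLP cofactors are given as well. Promoters are from RefSeq (GRCm38.p6), where all 10 genes matched. Exon overlaps are from GENCODE M21.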

Additional observations from a re-analysis of the deposited data

How the results depend on the processing

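No member was called between KO and WT under any alternative, and the differences near 0 changed sign with single libraries. Left out 1 at a time, the libraries gave these log2 ranges. In testis they were -0.0816 to 0.00572 for Setdb1, -0.137 to 0.0331 for Ehmt1, -0.132 to 0.0412 for Trim28 and -0.0385 to 0.183 for Cbx5. In brain they were -0.0231 to 0.0237 for Ehmt1, -0.0297 to 0.0387 for Suv39h1, -0.170 to 0.178 for Suv39h2, -0.0572 to 0.111 for Wiz, -0.0493 to 0.0757 for Cbx1, -0.0810 to 0.0571 for Cbx3 and -0.0332 to 0.0667 for Cbx5. In liver they were -0.0836 to 0.0545 for Setdb1, -0.163 to 0.00344 for Ehmt2, -0.0737 to 0.110 for Trim28, -0.145 to 0.0595 for Wiz and -0.0976 to 0.0927 for Cbx1. Trim28 in liver was -0.0249 under TPM and -0.00942 under voom, and Cbx5 in brain was -0.00306 under voom. The KO minus WT log2 ratio of Suv39h2 over Suv39h1 ran from -0.228 to 0.201 in brain and -0.289 to 0.0244 in liver. In percentage points, the Cbx1 share ran from -0.751 to 1.17 in brain and -3.92 to 0.489 in liver, the Cbx3 share from -1.39 to 0.784 in brain, and the Cbx5 share from -0.399 to 3.51 in testis, -1.20 to 2.14 in brain and -1.04 to 2.58 in liver. Between tissues, Wiz for testis over brain ran from -0.0425 to 0.125 in KO and -0.0594 to 0.0437 in WT, and Trim28 for brain over liver from -0.0121 to 0.172 in KO and -0.0203 to 0.103 in WT. Rescaling reversed the tissue differences that follow, and which scaling holds between tissues was not tested. For testis over brain, TPM gave -0.284 in KO and -0.108 in WT for Cbx1, and Wiz in KO was -0.605 under TPM and -0.159 under library totals. For brain over liver, Setdb1 was 1.46 and 0.757 in KO and 1.31 and 0.630 in WT, Ehmt1 was 0.942 and 0.245 in KO and 1.00 and 0.326 in WT, and Cbx1 was 1.33 and 0.631 in KO and 1.27 and 0.590 in WT, under TPM and library totals in that order. The library total also left Cbx1 for testis over brain in KO without a call (adjusted p = 0.0692). With the replicate number as a block, 8 members instead of 9 were called for testis over liver in WT, since Cbx3 had an adjusted p of 0.0994 at a log2 difference of 0.23, and no other member call between tissues changed. Where same-numbered libraries did not all correlate above 0.1 (lowest 0.00195), the numbers were not taken to pair them. In KO, same-numbered libraries correlated at 0.0981 to 0.128 for testis and liver and at 0.0968 to 0.140 for brain and liver. Libraries of unlike number ran from -0.0924 to -0.0206 and from -0.113 to -0.0125 there. The cut at 0.1 therefore does not show that these KO libraries are unpaired. No paired analysis was possible between KO and WT within a tissue because they share no numbers. A fit of all 18 libraries called 36 genes in testis, 27 in brain and 87 in liver between KO and WT, where the fit within the tissue called 1, 15 and 3, and 0 members in each. Depth limits Suv39h2 most in liver (21 to 37 reads per library) and brain (73 to 128 reads), and Suv39h1 most in liver (75 to 104 reads), then in testis (206 to 348 reads).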
